A study of Mus musculus with 16 samples.

Results

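The Cdca3/Usp5 bidirectional promoter on mouse chromosome 6 was used as the viewpoint of 8 of the series' 16 4C-seq libraries. 4C-seq (circular chromosome conformation capture with sequencing) lists the restriction fragments that were ligated to 1 chosen locus, and so the parts of the genome found close to it. All 8 libraries titled for Cdca3 were taken, and the members are the restriction sites that the authors listed for each. The other 8 libraries have their viewpoint at the Pole/Pxmp2 promoter and serve here only for comparison.

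The libraries came from mouse embryonic fibroblasts (MEFs) made from E13.5 embryos and crosslinked while proliferating at passage 4. There were 4 Rb1+/+ cultures and 4 Rb1L/L cultures, without a treatment, and each Rb1+/+ culture carries the same pair number as a Rb1L/L culture. Which litter, day or embryo a pair shares is not stated in the labels, and neither is the number of embryos behind a culture. Nothing in the lists checks the genotype of a library. The series' title names its question, the role of pRb and condensin II at promoters of divergently paired genes, and here it becomes whether the contacts of 1 such promoter differ between the genotypes.

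Rb1 encodes pRb, the retinoblastoma protein, which restrains E2F transcription factors and also binds chromatin regulators through a cleft that recognises the LxCxE motif. The L allele is known as a mutation of that cleft. Condensin II is a ring-shaped complex that compacts and loops chromosomes. Cdca3 encodes a cell-cycle protein needed for entry into mitosis and Usp5 a deubiquitinase that disassembles free ubiquitin chains.

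The promoter itself is shown because every contact below is read from it. The RefSeq window from 250 bases before to 50 bases after the Cdca3 start (GRCm38.p6, plus strand, chr6:124829926-124830225) is given below with motif matches in capitals. Usp5 is named only.

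Cdca3: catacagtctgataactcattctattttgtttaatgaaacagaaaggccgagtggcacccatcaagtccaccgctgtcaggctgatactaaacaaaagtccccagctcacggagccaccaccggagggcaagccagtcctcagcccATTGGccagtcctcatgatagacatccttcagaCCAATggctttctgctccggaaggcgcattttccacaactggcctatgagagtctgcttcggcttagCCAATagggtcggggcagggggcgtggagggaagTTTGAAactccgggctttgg

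Cell-cycle promoters are known for the CHR motif (TTTGAA) and the CCAAT box. On either strand, the window held 1 CHR match, which starts 30 bases after the transcription start, and 3 CCAAT matches, with no overlap between the motifs. The CHR letters occurred in 17.9% and the CCAAT letters in 37.4% of the 32851 RefSeq promoter windows of this length. The HindIII site AAGCTT, where the 4C fragments were cut, was absent from this window and was present in 7.45% of all windows. The NlaIII site CATG, the second cut, occurred 1 time here and was present in 61.1% of all windows. In the RefSeq gene order Usp5 and Cdca3 lie side by side, with Tpi1 beyond Usp5 and Gnb3 beyond Cdca3.

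In these lists cis means chromosome 6 and trans means the other 18 autosomes, and coordinates are mm9. The Rb1+/+ replicates 1 to 4 listed 19534, 24216, 27093 and 30166 autosomal sites, and the Rb1L/L replicates 15310, 38381, 36300 and 27724. The Rb1L/L values enclosed the Rb1+/+ values on both sides, and the difference of 4177 sites did not pass (exact two-sided permutation p = 0.514, 70 assignments, smallest possible p 0.0286). All 223903 listed sites, X included, lay in a region called in their own library. Read depth is unknown, so the number of listed sites stands in as the only measure of yield. Rb1L/L replicate 1 stood apart in trans. Its Spearman correlation with each other library over 952 windows of 1 Mb was 0.361 to 0.406, against 0.579 to 0.775 among the other 7. In cis its correlations did not stand apart, with 0.759 to 0.860 over 161 windows of 500 kb against 0.774 to 0.913. Its median cis distance did, at 23.7 Mb against 31.5 Mb in the nearest of its group. Without this library the difference in listed sites was 8883 (exact permutation p = 0.114).

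The share of autosomal sites in cis was 31.6, 28.6, 34.4 and 31.0% in the Rb1+/+ replicates and 34.4, 25.1, 25.9 and 29.96% in the Rb1L/L replicates. The highest share in each genotype was 34.4%, and the groups overlapped. The Rb1L/L mean was 2.57 percentage points lower (28.8 ± 4.28% against 31.4 ± 2.36%, SD, n = 4 each, 95% interval of the difference -9.32 to 5.75, exact permutation p = 0.343), and it was lower in 3 of 4 pairs. Across the 8 libraries the share fell with the log2 number of listed sites (Pearson r = -0.757, permutation p = 0.0277; Spearman rho = -0.786, permutation p = 0.0279; 12 such relations, adjusted p = 0.0332 and 0.0372). Without the 2 libraries farthest from the median in site number, replicate 1 of each genotype, r was -0.687. Within genotypes r differed widely, 0.156 over the 4 Rb1+/+ and -0.984 over the 4 Rb1L/L libraries. The fitted line fell by 5.58 percentage points per doubling of listed sites. At equal listed sites the genotype difference was -1.72 ± 1.78 percentage points (SE, exact permutation p = 0.4). The unadjusted difference was -4.43 without Rb1L/L replicate 1 (exact permutation p = 0.0857) and -1.32 without Rb1L/L replicate 2 (exact permutation p = 0.629).

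**Figure D1:**
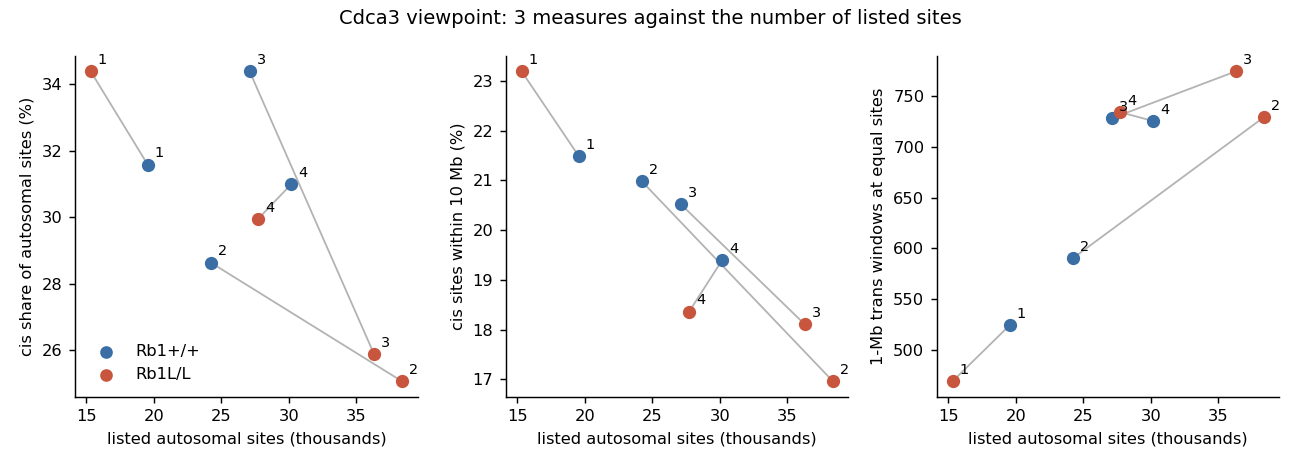
Cis share (left), cis sites within 10 Mb of the middle of the stretch without listed sites as a percentage of cis sites (middle) and number of 1-Mb trans windows reached at equal trans sites (right). Each is drawn against the listed autosomal sites in units of 1000. Points are the 8 libraries numbered by replicate, and grey lines join the MEF pairs. The near share fell from 23.2 to 17.0% and the trans windows ranged from 469 to 774.

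No library listed a site between 122734336 and 125781765 on chromosome 6, a stretch of 3.05 Mb into which the promoter falls. Why it holds none was not tested. Distances are measured from the middle of this stretch, which leaves 119 Mb on the centromeric side and 23.6 Mb on the telomeric side of the cis sites. The promoter's place within the stretch is not marked, so distances from the promoter itself can differ by up to 1.52 Mb. Contact density fell with distance, but not smoothly. Between 2.51 and 3.98 Mb the Rb1+/+ libraries had 24.7 ± 3.44 and the Rb1L/L libraries 25.4 ± 6.34 sites per Mb per 1000 cis sites (SD, n = 4). By 6.31 to 10 Mb the density had dropped to 5.07 ± 0.551 and 3.45 ± 0.887, and from 10 to 15.8 Mb it was back at 10.5 ± 0.402 and 10.8 ± 1.39. From 63.1 to 100 Mb it was 5.20 ± 0.0717 and 5.04 ± 0.664. In Rb1+/+ cells, contacts in this class were thus as dense as those at 6.31 to 10 Mb.

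The dip was also present in how much of the chromosome was called. Called regions covered 87.2% and 87.9% of the nearest distance class in Rb1+/+ and Rb1L/L cells, 29.4% and 27.4% of the 6.31 to 10 Mb class, and 46.6% and 49.4% of the next. Within called regions, the dip was seen in the sites per called Mb too, from 220 ± 12.3 and 225 ± 9.97 in the nearest class to 137 ± 30.1 and 98.7 ± 7.17, then 178 ± 11.2 and 173 ± 13.7.

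The 6.31 to 10 Mb class was the one of 8 distance classes with the smallest p for genotype. The Rb1+/+ libraries had 4.79, 4.55, 5.82 and 5.13 sites per Mb per 1000 cis sites there, and the Rb1L/L libraries 4.58, 3.00, 3.69 and 2.54. Only Rb1L/L replicate 1 overlapped the Rb1+/+ range, and the value was lower in Rb1L/L in 4 of 4 pairs. The difference of -1.62 did not pass (exact permutation p = 0.0571, adjusted over the 8 classes 0.457). A single class could not have passed adjustment over 8, since 0.0286 is the smallest exact p. Without Rb1L/L replicate 1 the difference was -1.99 and the groups did not overlap (exact permutation p = 0.0286, unadjusted and the smallest possible). In the other 7 classes the exact permutation p was 0.514 or higher. The genotype gap at 6.31 to 10 Mb lay on the centromeric side, with 7.57 ± 1.37 and 4.38 ± 1.37. On the telomeric side the values were 2.58 ± 0.465 and 2.53 ± 0.591.

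A power-law exponent, the slope of log density on log distance from 2.51 to 100 Mb, summarised the decay. It was -0.320, -0.324, -0.309 and -0.295 in the Rb1+/+ libraries, close together. It was -0.399, -0.209, -0.247 and -0.262 in the Rb1L/L libraries, where replicate 1 was the steepest of all 8 and the other 3 the shallowest. The means were -0.312 ± 0.0131 and -0.279 ± 0.0829, with a difference of 0.0328 (95% interval -0.104 to 0.115, exact permutation p = 0.514). Without Rb1L/L replicate 1 the difference was 0.0727 and reached the smallest possible p (exact permutation p = 0.0286, unadjusted), so this 1 library decided the call. With the log2 number of listed sites in the fit and all 8 libraries, the difference was 0.0147 (exact permutation p = 0.343). The exponent rose with the log2 number of listed sites (Pearson r = 0.933, adjusted permutation p = 0.00226; Spearman rho = 0.952, adjusted permutation p = 0.00685; r = 0.896 without replicate 1 of each genotype). The centromeric side alone gave a difference of 0.0530 (exact permutation p = 0.257) and the telomeric side -0.0382 (exact permutation p = 0.486).

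**Figure D2:**
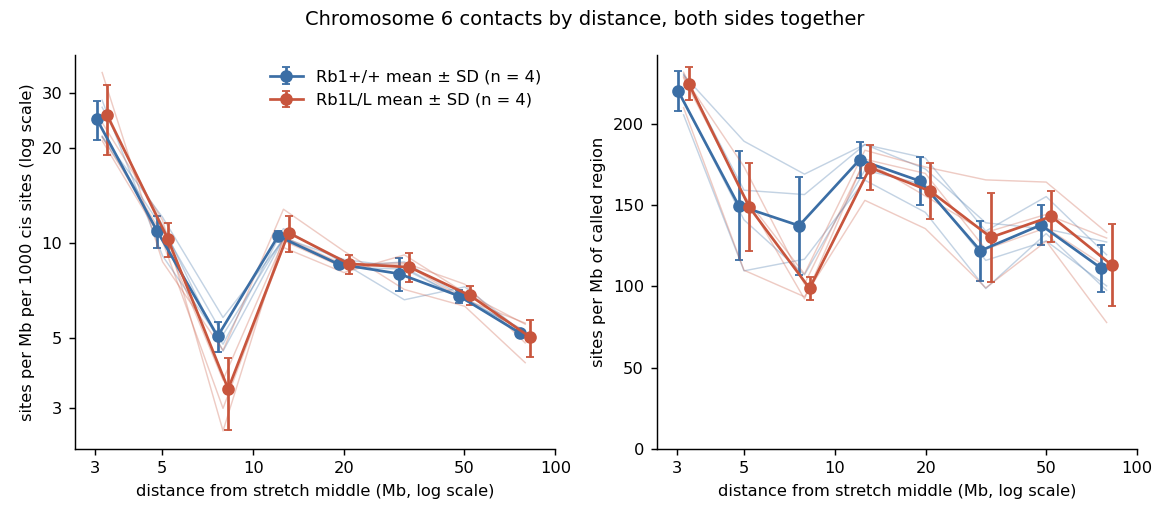
Listed sites per Mb per 1000 cis sites (left) and listed sites per Mb of called region (right) by distance from the middle of the stretch without sites, log scale in Mb, both sides together. Thick lines are genotype means with SD over 4 libraries and thin lines are single libraries. The mean density falls to 5.07 and 3.45 in the 6.31 to 10 Mb class and is 10.5 and 10.8 in the next.

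The share of cis sites within 10 Mb was 21.5, 21.0, 20.5 and 19.4% in the Rb1+/+ libraries and 23.2, 17.0, 18.1 and 18.4% in the Rb1L/L libraries. The 3 lowest values were Rb1L/L and the highest was Rb1L/L replicate 1. Rb1L/L minus Rb1+/+ was -1.44 percentage points (95% interval -4.53 to 3.80, exact permutation p = 0.371) and -0.796 at equal listed sites (exact permutation p = 0.143). It was -2.79 without Rb1L/L replicate 1 (exact permutation p = 0.0571) and -0.711 without Rb1L/L replicate 2 (exact permutation p = 0.657). Among the measures set against site number this share had the highest rank correlation (Pearson r = -0.948, adjusted permutation p = 0.00193; Spearman rho = -0.976, adjusted permutation p = 0.00476; r = -0.880 without replicate 1 of each genotype). Listing differed with distance in the same libraries. From 2.51 to 3.98 Mb the libraries listed 175 to 204 sites per Mb, and from 63.1 to 100 Mb they listed 22.0 to 53.3. The beyond-50-Mb share differed by 0.584 percentage points (33.8 ± 0.376% and 34.4 ± 3.62%, exact permutation p = 0.943), and by 2.19 without Rb1L/L replicate 1 (exact permutation p = 0.114).

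The median distance of a cis site was 25.0, 29.6, 25.8 and 26.1 Mb in Rb1+/+ and 23.7, 33.1, 32.2 and 31.5 Mb in Rb1L/L cells. Again 3 Rb1L/L libraries had the highest values and replicate 1 the lowest. The difference of 3.49 Mb did not pass (95% interval -5.86 to 8.07, exact permutation p = 0.2), nor did it at equal listed sites (2.58, exact permutation p = 0.171). It was 5.63 Mb without Rb1L/L replicate 1 (exact permutation p = 0.0571) and 2.51 Mb without Rb1L/L replicate 2 (exact permutation p = 0.343). It turned to -0.842 Mb when only listed intervals of 6 bp, the length of a HindIII site, were kept (exact permutation p = 0.857). Longer intervals made up 11.8, 1.70, 10.0 and 4.26% of the Rb1+/+ lists and 6.40, 1.80, 2.32 and 2.04% of the Rb1L/L lists. In 8 of 8 libraries they were more frequent in cis (3.59 to 23.5%) than in trans (0.949 to 6.60%). In 8 of 8 they were more frequent within 5 Mb (5.04 to 33.6%) than beyond 50 Mb (2.57 to 15.5%). What the longer intervals stand for is not given in the sources used here.

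Listed sites recurred between libraries to a degree that changed with distance. Of 14738 distinct cis sites, 2509 (17.0%) were listed in all 8 libraries and 2779 (18.9%) in 1. In the closest class, 1.5 to 2.51 Mb, 48.2% of the sites ever listed were listed in all 8. The share was highest at 2.51 to 3.98 Mb (69.4%), against 10.8% at 6.31 to 10 Mb, 38.3% at 10 to 15.8 Mb and 0.141% beyond 100 Mb. In trans 94938 distinct sites were listed, of which 56332 (59.3%) appeared in 1 library and 16 in all 8. Of the cis sites listed in all 8 libraries 26.5% were also listed in at least 1 Pole/Pxmp2 library, against 5.79% of those listed in 1. Of the trans sites listed in 1 library, 21.2% were also listed there.

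Called regions on chromosome 6 formed the same pattern of blocks and gaps in both genotypes. Each library had 47 to 57 regions covering 31.5 to 45.0% of the cis span. The counts were 50, 54, 50 and 50 in Rb1+/+ and 47, 51, 57 and 51 in Rb1L/L cells (difference 0.5, 95% interval -7 to 7, exact permutation p = 0.8286). Coverage was 34.7, 37.4, 43.1 and 43.7% against 31.5, 42.6, 45.0 and 42.3% (difference 0.609 percentage points, 95% interval -12.2 to 10.2, exact permutation p = 0.886). Without Rb1L/L replicate 1 these differences were 2 regions and 3.55 percentage points (exact permutation p = 0.457 and 0.314). Coverage rose with the log2 number of listed sites (Pearson r = 0.925, adjusted permutation p = 0.00226; Spearman rho = 0.810, adjusted permutation p = 0.0327), and r was 0.669 without replicate 1 of each genotype. Of the span, 67.7 Mb (46.4%) was called in none of the 8 libraries and 37.6 Mb (25.8%) in all of them. The longest gap without a call ran from 23313378 to 28157822 (4.84 Mb), followed by 8696321 to 12344358 (3.65 Mb) and 108985168 to 112366260 (3.38 Mb).

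**Figure D3:**
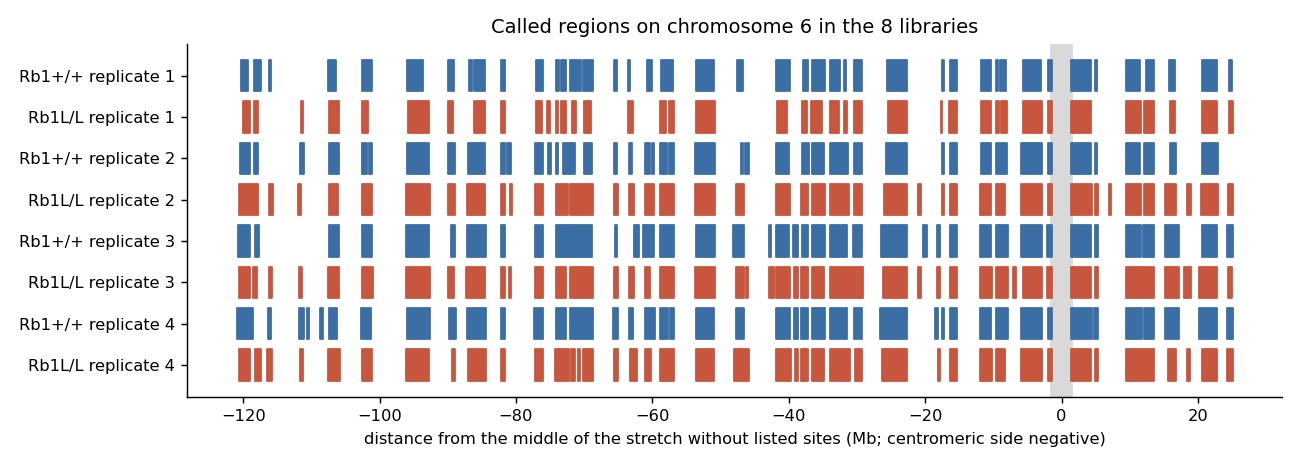
Regions called on chromosome 6 in each library, drawn to scale as distance in Mb from the middle of the stretch without listed sites (grey), with the centromeric side negative. Rows alternate Rb1+/+ (blue) and Rb1L/L (red) by MEF pair, and most blocks recur in all 8 rows.

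Merging regions that overlap by at least 1 bp gave 52 cis regions, 29 of them called by all 8 libraries and 8 by 1. The 29 held 95.3 ± 2.43% of the cis sites of Rb1+/+ libraries and 95.2 ± 2.90% of those of Rb1L/L libraries (exact permutation p = 0.943). They were 0.684 to 4.00 Mb long. A region that leans to a genotype, called in at least 3 of its libraries and at most 1 of the other, was found 1 time in cis (1.92% of 52) and lay at 142249178 to 143303978. No Rb1+/+ library called it and 3 of 4 Rb1L/L libraries did (Fisher's exact test p = 0.143, adjusted p = 1), and it held 2.84 ± 2.10 per 1000 cis sites in the latter.

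The block at the telomeric edge of the stretch was the densest of the 29 by sites per Mb. This block, 125634993 to 128663039 held 87.7 ± 13.1 (Rb1+/+) and 89.4 ± 20.9 (Rb1L/L) of every 1000 cis sites, at 225 and 230 sites per Mb. On the centromeric side, 118257559 to 121422258 held 69.3 ± 5.75 and 65.8 ± 5.27, at 173 and 167 sites per Mb. A short block next to the stretch, 122186137 to 122929822, held 8.27 ± 2.91 and 6.40 ± 2.20, at 88.7 and 69.9 sites per Mb. Blocks far away could hold as many sites as these. The longest of the 29, 97664466 to 101666095, lay 22.6 Mb from the stretch middle and held 76.4 ± 4.75 and 75.7 ± 4.92. At 92.7 Mb, 28157823 to 31600985 still held 53.1 ± 6.09 and 52.5 ± 4.51, at 122 and 126 sites per Mb. The others of the 8 longest held fewer sites, with 39.4 ± 8.86 and 37.9 ± 10.6 at 52173420 to 55613920, 33.9 ± 9.58 and 41.6 ± 11.4 at 90257859 to 93519068 and 38.6 ± 3.28 and 41.9 ± 5.61 at 36966985 to 39873048. The block next to the centromeric end of the list, 3392605 to 6918355, held 14.2 ± 3.40 and 17.5 ± 3.63. The genotype ranges overlapped in each of these 8 and in the short block. Chosen after their values were seen, 70544717 to 73415433, 50.8 Mb away, held 66.8 ± 10.5 and 66.1 ± 7.03 at 180.4 and 184 sites per Mb, above the block on the centromeric side, and 144434705 to 147214414 on the telomeric arm 58.7 ± 6.55 and 56.5 ± 8.22.

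The ends of the blocks could be compared where a block was called as a single region. Of the 29 blocks, 12 were called as 1 region in every library, which gave 24 edges. An edge moved over a median range of 128 kb among the 8 libraries, and the genotype means differed by a median of 20.1 kb and at most 170 kb. No edge had an unadjusted exact permutation p under 0.05 (0 of 24), and the smallest adjusted p was 0.823. A single edge could not have passed adjustment over 24, since 0.0286 is the smallest exact p. In the 17 blocks called in pieces in some library the outer ends moved further, with a genotype shift of up to 374 kb (the end of 90257859 to 93519068).

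Rb1L/L means were higher in 15 and lower in 14 of the 29 blocks, and 19 lay within 1.2-fold of the Rb1+/+ mean. The groups did not overlap in 2 of the 29 (6.9%), and these were named after their values were seen. The block at 114574935 to 116422555, 7.84 Mb from the stretch middle, held 23.3, 24.4, 34.2 and 29.7 sites per 1000 cis sites in the Rb1+/+ libraries. It held 21.3, 13.3, 16.3 and 10.6 in the Rb1L/L libraries, each below the lowest Rb1+/+ value. The log2 difference was -0.89 ± 0.23 (SE) and did not pass over the 46 merged regions tested by limma (with the MEF pair as a block, limma adjusted p = 0.348). This block lies inside the 6.31 to 10 Mb distance class, so its lower values and those of the class share sites and are not separate observations. The block at 60648138 to 61963391, 62.3 Mb away, was sparse, with 0.810, 1.30, 3.01 and 2.25 sites per 1000 in Rb1+/+ and 5.32, 5.72, 3.08 and 6.86 in Rb1L/L cells. Without Rb1L/L replicate 1 the mean differences were -14.5 and 3.38 sites per 1000. Leaving out a library could not make the groups overlap in these blocks.

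**Figure D4:**
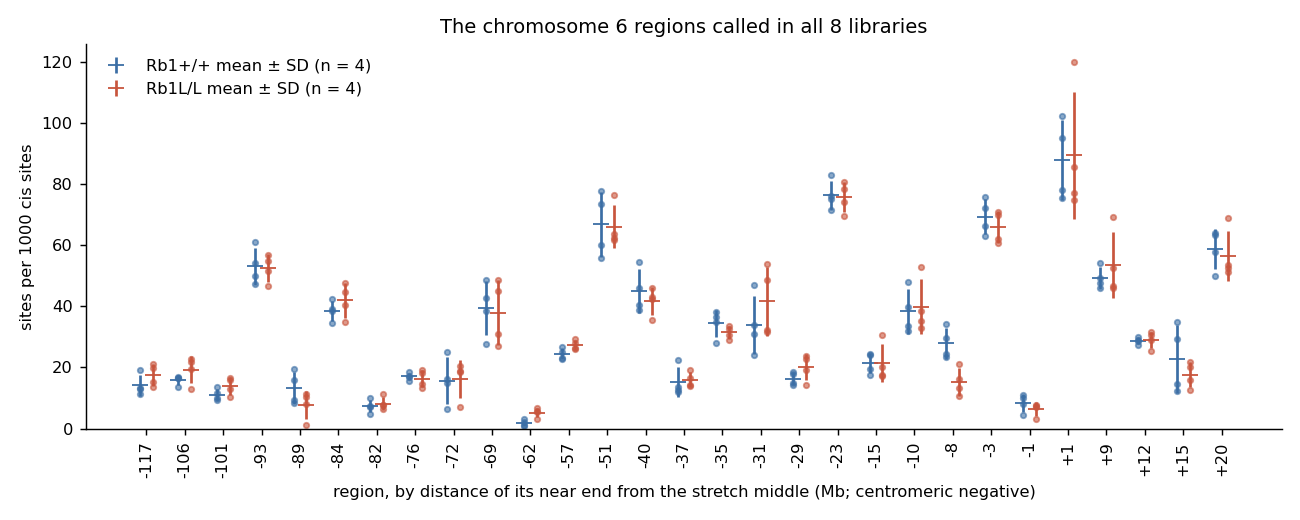
Sites per 1000 cis sites in each of the 29 chromosome 6 regions called in all 8 libraries, ordered along the chromosome by the distance in Mb of the near end from the stretch middle. Points are libraries and bars are genotype means with SD over 4 libraries. The block at -8 Mb has 27.9 ± 5.06 in Rb1+/+ and 15.4 ± 4.57 in Rb1L/L libraries.

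In 500-kb windows of chromosome 6, 0 of 161 passed an adjusted p of 0.05 (0% called; limma on log2 sites per 1000 cis sites with 0.5 sites added and the MEF pair as a block). An unadjusted p under 0.05 was found in 9 (5.59%), of which 4 were higher in Rb1L/L cells, and the smallest adjusted p was 0.802. The groups did not overlap in 6 windows (3.73%). Of the 171 windows with any site, 90 had sites in all 8 libraries and held 85.5% of the cis sites. The median absolute log2 difference in those 90 was 0.14. The half-width of the 95% interval was a median of 1.55 on the log2 scale over all 161, and in 63 windows the whole interval lay within 1 of no change.

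Of the 5 windows with the lowest p among those lower in Rb1L/L cells, 4 lay between 115 and 120 Mb. The first, 119.5 to 120 Mb, had 14.6, 16.4, 13.8 and 12.9 sites per 1000 in Rb1+/+ and 9.69, 12.6, 9.68 and 11.1 in Rb1L/L libraries, without overlap (log2 difference -0.43 ± 0.12, limma adjusted p = 0.802). Of the other 4 windows so ranked, 3 were neighbours from 115 to 116.5 Mb inside the block described above, with log2 differences of -2.25 ± 0.83, -0.73 ± 0.28 and -3.23 ± 1.34 (limma adjusted p 0.802, 0.802 and 0.839). These 3 share the sites of that block and are not separate observations. The fifth lay far from the promoter, at 35 to 35.5 Mb (log2 difference -2.22 ± 0.91, limma adjusted p = 0.839). The window with the lowest p among those higher in Rb1L/L cells, 61 to 61.5 Mb, had 0, 1.01, 0 and 1.82 sites per 1000 in Rb1+/+ and 3.99, 5.72, 3.08 and 5.30 in Rb1L/L libraries (limma adjusted p = 0.802). Both windows from 142.5 to 143.5 Mb in this ranking had 0 sites in all 4 Rb1+/+ libraries and in Rb1L/L replicate 1.

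The windows with the highest mean share had close genotype means. The window at 113 to 113.5 Mb had 19.4 ± 3.89 and 19.2 ± 5.54 sites per 1000 (log2 difference -0.03 ± 0.11), and the one at 126 to 126.5 Mb had 19.2 ± 2.84 and 19.4 ± 4.66 (0.00 ± 0.10). In each of these 2 windows Rb1L/L replicate 1, the library with the fewest listed sites, had the highest value (27.4 and 26.2). A list holds a site as present or absent. Whether this limits a genotype difference in windows with most sites listed was not tested. In the distance class of the second window, a library listed a mean of 83.2% (Rb1+/+) and 80.6% (Rb1L/L) of the sites ever listed. In that of the first it was 72.1% and 74.3%. Over the 161 windows the mean Spearman correlation was 0.843 for 2 libraries of the same genotype, 0.842 for 2 of different genotype and 0.862 for the members of a pair. These are descriptions, since the windows share the decay with distance.

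The number of 500-kb windows expected at an equal draw of 5265 cis sites, the number in the smallest library, was 121, 130, 136 and 142 in Rb1+/+ and 110, 141, 146 and 135 in Rb1L/L cells. The difference was 0.633 windows (95% interval -32.5 to 25.6, exact permutation p = 0.971). Even at equal draws this breadth rose with the log2 number of listed sites (Pearson r = 0.964, adjusted permutation p = 0.00193; Spearman rho = 0.905, adjusted permutation p = 0.0174; r = 0.844 without replicate 1 of each genotype). Sites per called Mb were 122, 127, 148 and 147 in Rb1+/+ and 114, 155, 143 and 134 in Rb1L/L cells (difference 0.902, 95% interval -33.7 to 33.2, exact permutation p = 0.943). Leaving out Rb1L/L replicate 1 gave 8.25 windows and 8.34 sites per called Mb (exact permutation p = 0.286 and 0.4).

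Trans contacts were thinner and less repeatable. The trans regions held 21.2, 24.0, 20.4 and 24.1 sites per called Mb in Rb1+/+ and 17.1, 32.8, 29.6 and 22.1 in Rb1L/L cells (difference 2.99, 95% interval -6.96 to 12.4, exact permutation p = 0.429). Called cis regions were 4.72 to 7.27 times as dense as called trans regions in the 8 libraries, and this ratio did not pass between genotypes (6.10 ± 0.848 and 5.58 ± 0.959, exact permutation p = 0.457). There were 162, 168, 201 and 183 trans regions in Rb1+/+ and 178, 205, 184 and 185 in Rb1L/L cells (difference 9.5, 95% interval -23 to 43, exact permutation p = 0.429). Leaving out Rb1L/L replicate 1 gave differences of 5.75 sites per called Mb and 12.8 regions (exact permutation p = 0.114 and 0.286).

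At an equal draw of 10045 trans sites the libraries reached 524, 590, 728 and 725 windows of 1 Mb in Rb1+/+ and 469, 729, 774 and 734 in Rb1L/L cells. The difference was 34.8 windows (95% interval -259 to 250.2, exact permutation p = 0.743). With the log2 number of listed sites in the fit it was -2.09 (exact permutation p = 0.971), and without Rb1L/L replicate 1 it was 105 (exact permutation p = 0.171). Replicate 1 of each genotype had the fewest windows, and they were also the libraries with the fewest listed sites. Set against the Pole/Pxmp2 promoter in the same cultures, at 2403 sites per library on the autosomes other than 5 and 6, the Cdca3/Usp5 contacts reached 540 ± 93.9 windows and the Pole/Pxmp2 contacts 345 ± 122. The Cdca3/Usp5 number was higher in 8 of 8 cultures (difference 195, exact two-sided sign-flip permutation p = 0.0078, the smallest possible). The Cdca3/Usp5 libraries also listed more sites on these autosomes in 8 of 8 cultures, 9168 to 26860 against 2403 to 7889. These ranges do not overlap, so viewpoint and number of listed sites cannot be told apart in this difference.

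Contacts were spread over the 18 trans autosomes unequally. Per Mb of chromosome and 1000 trans sites, chromosome 11 had the highest density (0.632 ± 0.103 over the 8 libraries), followed by chromosomes 9 (0.576 ± 0.0798), 17 (0.571 ± 0.0266) and 7 (0.561 ± 0.0546). Chromosomes 18 (0.348 ± 0.0723), 13 (0.366 ± 0.0683) and 10 (0.376 ± 0.0375) had the lowest. Across the 18 chromosomes, density correlated with protein-coding genes per Mb with r of 0.623, 0.696, 0.780 and 0.780 in Rb1+/+ and 0.355, 0.656, 0.678 and 0.812 in Rb1L/L libraries. These describe chromosomes within a library, which are not replicates.

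Between the genotypes, 0 of the 18 chromosome shares passed after adjustment (0%), and 2 (11.1%) had an unadjusted exact permutation p under 0.05. A single share could not have passed adjustment over 18, since 0.0286 is the smallest exact p. Chromosome 11 took 7.98, 8.48, 8.15 and 8.15% of trans sites in Rb1+/+ and 4.76, 6.90, 7.83 and 7.10% in Rb1L/L libraries. The groups did not overlap, and Rb1L/L minus Rb1+/+ was -1.54 percentage points (exact permutation p = 0.0286, adjusted p = 0.257). Without Rb1L/L replicate 1, the lowest library, it was -0.912 (exact permutation p = 0.0286, unadjusted). As the groups did not overlap with this library, they could not overlap without it. Chromosome 2 took 10.1, 8.98, 9.32 and 8.83% in Rb1+/+ and 7.82, 8.35, 8.47 and 8.72% in Rb1L/L libraries, again without overlap (difference -0.955, exact permutation p = 0.0286, adjusted p = 0.257). Without Rb1L/L replicate 1 its difference was -0.782 (exact permutation p = 0.0571). Chromosome 18 was higher in Rb1L/L cells in 4 of 4 pairs (2.38 ± 0.517% and 3.14 ± 0.343%, exact permutation p = 0.0571, adjusted p = 0.343). At equal listed sites the differences of chromosomes 1, 2 and 11 were -0.518, -0.968 and -1.80 (exact permutation p = 0.0286 each, adjusted p = 0.171). Without Rb1L/L replicate 1 the chromosome 13 difference was 1.03 (exact permutation p = 0.0286, unadjusted), against 0.710 with it (exact permutation p = 0.2).

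**Figure D5:**
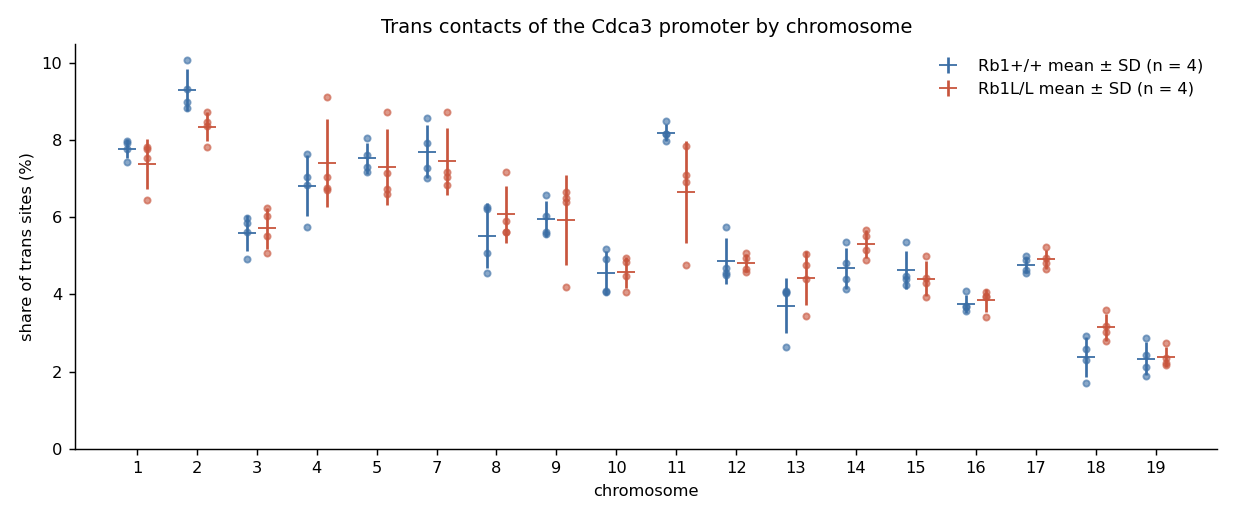
Share of each library's trans sites on each of the 18 autosomes other than chromosome 6, in percent. Points are libraries and bars are genotype means with SD over 4 libraries. On chromosomes 2 and 11 the 4 Rb1L/L points lie below the 4 Rb1+/+ points, and 1 Rb1L/L library has 4.76% on chromosome 11.

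Merging the trans regions gave 221, with 86 called by all 8 libraries and 29 by 1. The 86 held 87.5 ± 2.92% of the trans sites of Rb1+/+ libraries and 84.3 ± 1.53% of those of Rb1L/L libraries (difference -3.23 percentage points, exact permutation p = 0.114). The longest was chr9:52380820-73839012 (21.5 Mb), which held 24.4 ± 2.93 (Rb1+/+) and 26.7 ± 6.19 (Rb1L/L) of every 1000 trans sites. The next, chr4:121799197-142774657, held 33.1 ± 4.23 and 30.3 ± 0.612, and chr12:69066283-89214079 held 22.1 ± 3.29 and 21.1 ± 3.76. Others of more than 17 Mb lay at chr13:41538420-60788863 (11.8 ± 4.72 and 15.6 ± 1.97), chr14:53848969-72121326 (16.8 ± 3.32 and 17.6 ± 1.52), chr1:151199675-168828280 (19.7 ± 4.58 and 15.7 ± 5.29) and chr5:109886323-127345981 (25.3 ± 3.98 and 23.3 ± 4.67). The remaining 3 of the 10 longest lay at chr11:92857123-108581174 (25.7 ± 2.69 and 24.0 ± 0.797), chr14:19982389-35597603 (13.8 ± 2.45 and 14.7 ± 2.40) and chr17:22645377-37769858 (21.8 ± 2.26 and 21.5 ± 2.30). The genotype ranges overlapped in each of these 10.

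The groups did not overlap in 5 of the 86 regions (5.81%), and 4 of these were lower in Rb1L/L cells. These 5 were named after their values were seen and were not tested. On chr1:131944663-142067996 the Rb1+/+ libraries had 11.9, 13.3, 12.3 and 13.4 and the Rb1L/L libraries 9.16, 10.3, 9.59 and 10.1 sites per 1000 trans sites. On chr5:133234370-146758558 the means were 24.1 ± 3.66 and 17.96 ± 2.39. Chromosome 11 held 2 of them, 113303456 to 121841037 (16.2 ± 1.15 and 12.8 ± 1.05) and 66624665 to 71435471 (6.90 ± 1.39 and 4.23 ± 1.70). The one higher in Rb1L/L cells was chr8:95282270-99133754 (2.17 ± 0.907 and 3.91 ± 0.543).

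Regions leaning to a genotype by presence numbered 9 of 221 in trans (4.07%), 4 to Rb1+/+ and 5 to Rb1L/L, and all 9 held few sites. The clearest to Rb1+/+ was chr12:3008674-6201831, which 4 of 4 Rb1+/+ libraries and 1 of 4 Rb1L/L libraries called, with 1.69 ± 1.71 and 0.149 ± 0.299 sites per 1000. To Rb1L/L, chr4:31802133-33855321 and chr18:9590083-14370448 were called in 0 of 4 and 3 of 4 libraries. Across the 273 merged cis and trans regions, Fisher's exact test gave 0 with an unadjusted p under 0.05, and with 4 against 4 a split of 4 to 0 would be needed. Leaving out 1 Rb1+/+ library raised the count of 10 leaning regions to 17 (replicate 2), 20 (replicate 3) and 17 (replicate 4). It was 11 without replicate 1, and 7 or 8 without an Rb1L/L library.

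In 1-Mb trans windows 0 of 952 passed (0% called; limma with the MEF pair as a block). An unadjusted p under 0.05 was found in 38 (3.99%), of which 26 were higher in Rb1L/L cells, with a smallest adjusted p of 0.750. This balance turned with the setting. With the log2 number of listed sites in the fit, 30 of 80 such windows were higher in Rb1L/L cells with the block and 30 of 136 without it, and without Rb1L/L replicate 1 it was 13 of 47. The groups did not overlap in 30 windows (3.15%). The lowest p belonged to chromosome 12 at 4 to 5 Mb, within the leaning region named above, with 3.59, 1.33, 0.113 and 1.10 sites per 1000 in Rb1+/+ and 0.0996, 0, 0 and 0 in Rb1L/L libraries (limma adjusted p = 0.750). Chromosome 5 at 73 to 74 Mb ran the other way, with 0, 0, 0 and 0.769 against 4.78, 1.11, 1.08 and 1.91. Better filled windows moved less. Chromosome 10 at 79 to 80 Mb had 2.91 ± 0.404 and 1.91 ± 0.339 (log2 difference -0.61 ± 0.21) and chromosome 4 at 129 to 130 Mb 3.46 ± 0.715 and 2.37 ± 0.444 (-0.54 ± 0.18), both with a limma adjusted p of 0.750. The median half-width of the 95% interval was 2.64 on the log2 scale, so the interval of a typical single window spanned several fold.

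Sites were concentrated in few trans windows. Of 1078 windows with any site, 262 had sites in all 8 libraries and held 51.0% of the trans sites, with a median absolute log2 difference of 0.23. The highest mean shares were on chromosome 10 at 127 to 128 Mb (3.65 ± 0.212 sites per 1000 trans sites in Rb1+/+ and 3.48 ± 1.28 in Rb1L/L), chromosome 12 at 112 to 113 Mb (3.71 ± 0.308 and 3.21 ± 0.871) and chromosome 8 at 108 to 109 Mb (3.46 ± 0.586 and 2.91 ± 0.251). Of the 16 trans sites listed in all 8 libraries, 2 lay in the first of these, at chr10:127007461-127007469 and chr10:127270361-127270366. The former was also listed in 3 Pole/Pxmp2 libraries and the latter in 0. The site at chr4:148366737-148366742 was listed in 4 Pole/Pxmp2 libraries, and 9 of the 16 were listed in at least 1.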

How the data were processed

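4C-seq lists of 8 Cdca3/Usp5 libraries were analysed, with those of the 8 Pole/Pxmp2 libraries from the same cultures for 1 comparison. Each library has a list of restriction sites with coordinates, a column without a header in which the authors gave each site a p-value or q-value below 0.05, and a list of called regions. Which of p and q the column holds is not stated, and it was used only to filter sites at 0.01 in an alternative. Coordinates follow mm9, which the submitters' processing notes name. How reads were aligned and how sites and regions were called is not given in the sources used here. No read counts were used, so depth is unknown.

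Sites and regions were summarised in Python 3.11.15 (numpy 2.4.6, pandas 2.3.3). The viewpoint is not marked in the files. Its approximate position, from general knowledge, was used only to pick the stretch without listed sites that holds it. Single values were compared by exact permutation over the 70 assignments of 4 against 4 libraries, with 95% intervals from the same permutations and p-values adjusted by Benjamini-Hochberg (smallest 0.955 over the 13 single comparisons and 0.686 over the 12 at equal listed sites). A lone comparison could not have passed either adjustment, since the smallest possible exact p is 0.0286. The fit at equal listed sites has genotype and the log2 number of autosomal sites as terms, with genotype reassigned 70 times. Breadth is the expected number of windows at an equal draw of sites. Windows with at least 8 sites in all 8 libraries together were fitted with limma 3.58.1 (R 4.3.3), with the MEF pair as a block. The pairing comes from the pair numbers in the labels. In the window profiles, the deviations of pair members from the genotype means correlated at 0.291, -0.105, 0.224 and -0.0304 in cis and 0.203, 0.104, 0.132 and 0.0366 in trans. Between cultures of different number and genotype they ran from -0.333 to 0.290 in cis and from -0.150 to 0.145 in trans. The mean trans Spearman correlation was 0.637 for pair members, 0.611 within and 0.604 between genotypes. Whether the data bear out the pair numbers was not tested. The labels do not state that cultures are separate embryos, so the p-values measure the spread between these cultures.

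The tests were checked on simulated data. Named windows are those that passed or, with none, the 5 with the lowest p in each direction and the 8 with the highest mean share, from which the text gives the ones that describe the result. Named merged regions are the 8 longest in cis and 10 longest in trans called in all 8 libraries and the regions leaning to 1 genotype. Other regions are said to be named after their values were seen, except those next to the stretch, which were named for their position. The members and lists were chosen with earlier results of these data known. No mm9 annotation was used, so regions carry no gene names. RefSeq tables of GRCm38.p6 gave the promoter sequence, the gene order and the gene number per chromosome. X chromosome sites were left out of all comparisons but the one on X.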

Additional observations from a re-analysis of the deposited data

Results flagged for a closer look

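X chromosome sites belong to no comparison above. They made up 2.19, 1.15, 1.40 and 2.12% of the listed sites of the Rb1+/+ libraries and 3.11, 3.20, 2.58 and 2.45% of those of the Rb1L/L libraries. The groups did not overlap, and the difference was 1.12 percentage points (95% interval 0.259 to 2.05, exact permutation p = 0.0286, unadjusted), higher in 4 of 4 pairs. At equal listed sites it was 1.15 (exact permutation p = 0.0286), and without Rb1L/L replicate 1 it was 1.03 (exact permutation p = 0.0571). In the same cultures at the Pole/Pxmp2 viewpoint, looked at afterwards, the groups overlapped (1.64 ± 0.783% and 2.14 ± 0.618%, difference 0.507, exact permutation p = 0.343). The sex of the embryos is not in the labels, so its part in the X share could not be tested at either viewpoint.

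Of 64 sets of 4 libraries checked for 1 library far from the other 3, 8 had one (12.5%), where chance gives about 1 in 20 for a single set. The sets share the same libraries and hold correlated measures, so this comparison cannot show an excess. Rb1L/L replicate 1 accounted for 5 of the 8. Its median cis distance was 23.7 Mb, against 31.5 Mb in the nearest of its group. It reached 469 trans windows at equal sites, against 729 in the nearest. Its share of intervals longer than 6 bp was 6.40%, against 2.32%. It had 9.10% of its trans sites on chromosome 4, against 7.04%, and 4.19% on chromosome 9, against 6.39%. Rb1+/+ replicate 1 had 5.75% of its trans sites on chromosome 12, against 4.67% in the nearest of its group, and 2.63% on chromosome 13, against 4.04%. Rb1+/+ replicate 2 had 54 cis regions, against 50 in the other 3.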

How the results depend on the processing

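Of 600 alternative values, 561 kept the direction and the side of the threshold, 35 changed direction, all in differences that had not passed, 1 passed newly and 3 were counts that moved by over 1.5 times. Some alternatives could not pass, such as the sign-flip test over 4 pairs (smallest p 0.125) and exact tests without a pair (smallest p 0.1). For these the side of the threshold was fixed in advance. With the log2 number of listed sites in the fit, the differences turned to -0.167 percentage points for the share beyond 50 Mb, -0.149 for the number of cis regions, -0.986 percentage points for cis coverage, -3.73 for cis sites per called Mb, -3.54 for cis windows and -2.09 for trans windows at equal draws. With sites under 0.01 alone, cis windows at an equal draw turned to -4.81. With 6-bp intervals alone (chosen after seeing the data), the share beyond 50 Mb turned to -0.693 and the median cis distance to -0.842 Mb.

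Leaving out 1 library or pair gave differences from 0.00538 to 0.0727 for the decay exponent, where the highest, without Rb1L/L replicate 1, passed. The differences ran from -4.43 to -0.600 percentage points for the cis share and from -2.79 to -0.583 for the share within 10 Mb. They ran from 2.51 to 5.63 Mb for the median cis distance. The ranges were -0.507 to 2.22 for the share beyond 50 Mb, -1.67 to 2 for cis regions, -1.06 to 3.55 for cis coverage, -8.11 to 8.34 for cis sites per called Mb, -3.74 to 8.25 for cis windows and -4.51 to 105 for trans windows at equal draws. The leaning merged regions numbered 7 to 20, with 17, 20 and 17 without Rb1+/+ replicates 2, 3 and 4. The cause of these changes was not tested.

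With the replicate block, as a sign-flip test over the 4 pairs (smallest possible p 0.125), exact p was 0.375 for the cis share, 0.5 for the decay exponent, 0.375 for the near share and 0.25 for the median cis distance. Window calls were 0 with the MEF pair as a block and 0 without it, where 4 cis and 31 trans windows had an unadjusted limma p under 0.05. With the log2 number of listed sites and no replicate block they were 12 (4 higher in Rb1L/L cells) and 136 (30 higher), with smallest limma adjusted p of 0.122 and 0.192.

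Depth is unknown, and 4 libraries a group cannot give an exact p under 0.0286.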
